A study of Homo sapiens with 9 samples.

Results

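The replication-dependent histone genes encode the bulk histones that package DNA as it is copied: the core histones H2A, H2B, H3 and H4 and the linker histones of the H1 family. They were taken by symbol from GENCODE release 44 as H1-1 to H1-6 and every gene named H2AC, H2BC, H3C or H4C with a number. Of the 60617 genes in the files, 67 were members: 6 of H1, 15 of H2A, 18 of H2B, 13 of H3 and 15 of H4. H2AC18 and H2AC19 also fit the rule and were not analysed here, since their identifiers in release 44 were not among those of the files. The RNA-seq libraries came from PC-3, an established human cell line from a prostate cancer metastasis. There were 3 control libraries, 3 of cells given decitabine at 1 µM, a nucleoside analog that is built into DNA and traps DNA methyltransferases, and 3 of cells given decitabine at 1 µM together with 200 µM of S-adenosylmethionine (SAM), the methyl donor of those enzymes. Treatment lasted 5 days in every group, and the comparisons ask how each treatment changed these mRNAs and whether SAM altered the change seen after decitabine. Nothing in the labels says whether the 3 libraries of a group came from separate cultures, so the p-values measure the spread between these libraries, which may be technical.

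Histone mRNAs of this class are made mainly while DNA is replicated and are the main animal mRNAs without a poly(A) tail. Their genes lie in clusters, where NPAT, the coactivator of histone transcription, gathers, and the mRNAs of this class mostly lack introns. In place of a tail they end just after a short stem-loop that is bound by SLBP, the stem-loop binding protein, and cut there by a complex that holds the U7 small nuclear RNA. Some members can in addition be read through to a downstream signal and carry a poly(A) tail, as is known for differentiated cells that have left the cell cycle. The labels call the library preparation standard, and whether RNA was selected by its poly(A) tail is not given in the sources used here.

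The stem-loop is the sequence that sets these genes apart, so its forms are shown first. In the human genome assembly GRCh38, all 67 members had a stem-loop of 16 bases within 200 bases after the stop codon, at a median distance of 35 bases. It was searched as a stem of 6 pairs, starting with GG and ending with CC, around a loop of 4 bases. The 4 commonest forms are printed 5′ to 3′ on the gene's strand, with the loop in capitals, and they differ by histone type and by the last loop base.
38 members of H1, H2A, H2B and H3: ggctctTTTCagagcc
10 members of H4: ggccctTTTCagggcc
9 members of H1, H2A, H2B and H3: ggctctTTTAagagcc
4 members of H4: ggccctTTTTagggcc
The other 6 members each had a form of their own. One of them belonged to H2AC20, the member with the steepest fall.
H2AC20: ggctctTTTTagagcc
Among the 38 members with the commonest form, 21 were tested, of which 19 were higher and 1 lower after decitabine. Of the 9 members with the loop TTTA, 7 were tested and all 7 were higher, with a median log2 fold change of 3.18. Among them H3C8, H1-6 and H2BC7, with control means of 0, 0.33 and 6 counts, could be tested only through the treated libraries. H1-1 and H2AC21 had too few counts for a test. Of all genes tested, 36.3% were higher after decitabine, and differences between the forms were not tested. The stem-loop is the place where annotation also divides the members. For 17 of them, GENCODE lists a transcript whose end lies more than 100 bases past the loop, and these are called extended here. The distance, 430 to 37155 bases, was taken along the genome. Of the 17, all but H2BC21 and H3C10 have spliced transcripts, which need not contain the loop. The furthest annotated end of the other 50 lay within 18 bases of the loop.

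The histone mRNAs rose sharply with both treatments. Levels are given as CPM, which are counts scaled to a library total of 1000000. With no further scaling, members summed to 81.4, 95.5 and 106 CPM in the control libraries, 505, 536 and 641 after decitabine and 421, 429 and 528 after the combination. The treated libraries all lay above the controls, and the treatments overlapped. The mean was 5.95 times the control mean after decitabine and 4.87 times after the combination. Scaled by TMM, the method of edgeR that sets libraries on a common level, the summed CPM, used from here on, rose 5.01-fold and 4.17-fold. In each group the highest sum was in library 3. These are bulk samples, in which fewer cells of a type and less RNA per cell cannot be told apart.

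**Figure D1:**
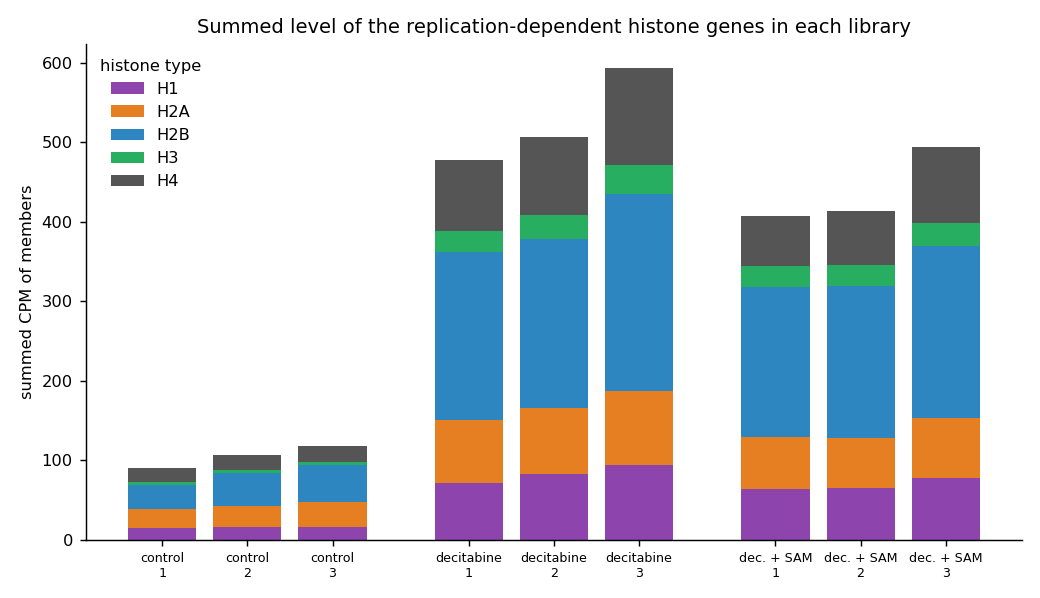
Summed TMM-scaled CPM of the 67 replication-dependent histone genes (y axis) in each of the 9 libraries (x axis), with 1 bar per library and 1 colour per histone type. The control bars reach 90.8 to 117.5 CPM, and the treated bars 407 to 594.

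A gene was tested when it passed edgeR's filter on low counts, and called when edgeR's quasi-likelihood test gave an adjusted p under 0.05. Only 38 members passed, and 29 stayed below, with at most 19 counts in any library. A member with few counts in control cells could pass only by being high in a treated group, so the counts over tested members describe them and do not measure the class as a whole. With decitabine, 34 of the 38 were higher and 2 lower, beside 36.3% of all 18532 genes higher and 32.5% lower. Their median log2 fold change was 2.42, while that of all genes was 0.035. With the combination, 31 were higher and 2 lower, beside 35.9% and 31.3% of all genes, with medians of 2.29 and 0.048. Among the 25 members with a control mean of at least 10 counts, a condition set after the values were seen, 24 were tested. Of these, 20 rose and 2 fell after decitabine, and 19 rose and 2 fell after the combination. With library size as the only scaling, the median of all genes moved to 0.28 after decitabine and 0.27 after the combination, and the members' medians became 2.67 and 2.51.

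**Figure D2:**
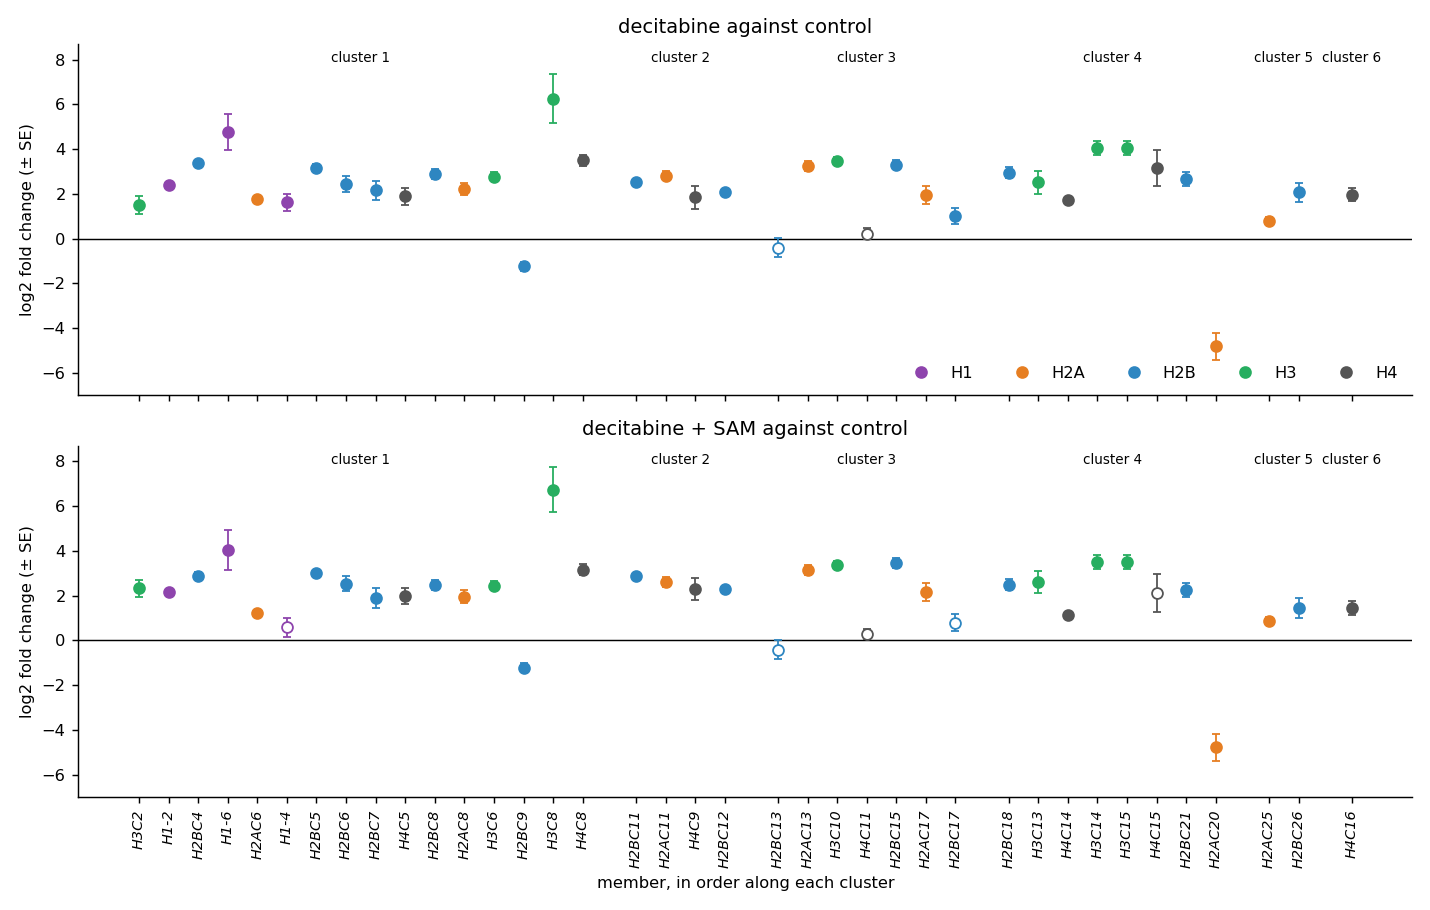
Log2 fold change against control with its standard error (y axis) for the 38 tested members, in order along each of the 6 clusters (x axis), after decitabine above and the combination below. Colours mark histone types, filled circles are called and open circles are not. Nearly all circles sit above 0, and H2BC9 and H2AC20 are the filled circles below it.

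The members lie in 6 clusters, counted here wherever neighbours were over 300 kb apart. Clusters 1 to 3 on chromosome 6 hold 34, 5 and 16 members, clusters 4 and 5 on chromosome 1 hold 9 and 2, and cluster 6 on chromosome 12 holds H4C16 alone. Calls in both treatments were spread over all of them. In cluster 1 (chr6:25723397-26285638), 15 of 16 tested members rose after decitabine and 1 fell. In cluster 2 (chr6:27125897-27147562), 4 of 4 rose. In cluster 3 (chr6:27807479-27893891), 5 of 7 rose. In cluster 4 (chr1:149782689-149887965), 7 of 8 rose and 1 fell. In the small clusters, H2AC25, H2BC26 and H4C16 were all higher.

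By histone type, rises were found in each. With decitabine, 3 of 3 tested H1 members rose (median log2 fold change 2.39), 6 of 7 H2A members (1.95), 12 of 14 H2B members (2.50), 7 of 7 H3 members (3.46) and 6 of 7 H4 members (1.90). With the combination the numbers that rose were 2, 6, 11, 7 and 5. Of the tested H3 members, only H3C6 and H3C10 had a control mean of at least 10 counts, and H3C14 and H3C15 carry the same values. Below the filter, H3C3 had 12, 16 and 6 control counts and 2, 6 and 2 after decitabine. H3C7 went from 3, 5 and 5 to 3, 3 and 1, H3C1 from 4, 5 and 8 to 8, 8 and 4, and H3C12 from 3 to 12 over the group. H3, with the steepest median of tested members, supplied few of the counts. It held 4.06% ± 0.41 of the members' counts in controls and 5.90% ± 0.37 after decitabine (SD, n = 3). H2A made up less of the total after treatment, at 25.9% ± 0.99 in controls, 16.2% ± 0.44 after decitabine and 15.5% ± 0.35 after the combination. H2B made up 36.8% ± 3.51, 42.7% ± 1.33 and 45.4% ± 1.5. For H2A the control libraries lay above all treated ones, and for H2B below them. These shares mix genes with and without extended transcripts.

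H1-2, a somatic linker histone, carried the most counts of any member. It lies at chr6:26055740-26056470 and had 14.8, 15.7 and 15.6 CPM in control cells, 69.9, 81.1 and 91.2 after decitabine and 63.7, 63.8 and 76.6 after the combination. The control libraries were close to each other and far below all the others. H1-2 rose 5.25-fold after decitabine (log2 2.39 ± 0.11 SE, edgeR's adjusted p = 3.3e-10) and 4.42-fold after the combination (log2 2.14 ± 0.11, adjusted p = 9.77e-10). The other linker genes were rare. H1-4, also somatic, had 3, 6 and 6 counts in control cells and 16, 22 and 17 after decitabine, a called rise (log2 1.62 ± 0.38, adjusted p = 0.00149), and 9, 8 and 9 after the combination, with no call (adjusted p = 0.24). H1-6, the linker histone of the testis, had 1 count in all controls together, 42 after decitabine and 25 after the combination. Its ratio was 35.7 after decitabine (95% interval 6.07 to 1444, counting error only) and 21.8 after the combination (3.57 to 895). H1-3 had 5, 3 and 6 control counts and at most 19 elsewhere, H1-5 had a single count in the series, and H1-1 had none.

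Of the H2A genes, H2AC6 and H2AC25 had the highest levels per kilobase of transcript. H2AC6, a gene with extended transcripts, had 12.01, 13.6 and 16.3 CPM in control cells, 46.2, 47.5 and 49.8 after decitabine and 30.5, 30.5 and 37.8 after the combination. The combination libraries lay between the other groups, and no groups overlapped. The rise was 3.43-fold after decitabine (log2 1.78 ± 0.12, edgeR's adjusted p = 1.09e-08) and 2.36-fold after the combination (1.24 ± 0.12, adjusted p = 3.88e-07). H2AC25, the H2A gene of the small chromosome 1 cluster, rose least among the called members, from 6.80, 7.05 and 7.399 CPM to 9.25, 11.96 and 15.7 after decitabine and 13.1, 11.8 and 13.7 after the combination. Its log2 fold changes were 0.80 ± 0.16 (adjusted p = 0.000559) and 0.87 ± 0.16 (adjusted p = 0.0003). The testis H2A gene H2AC1 had no counts.

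**Figure D3:**
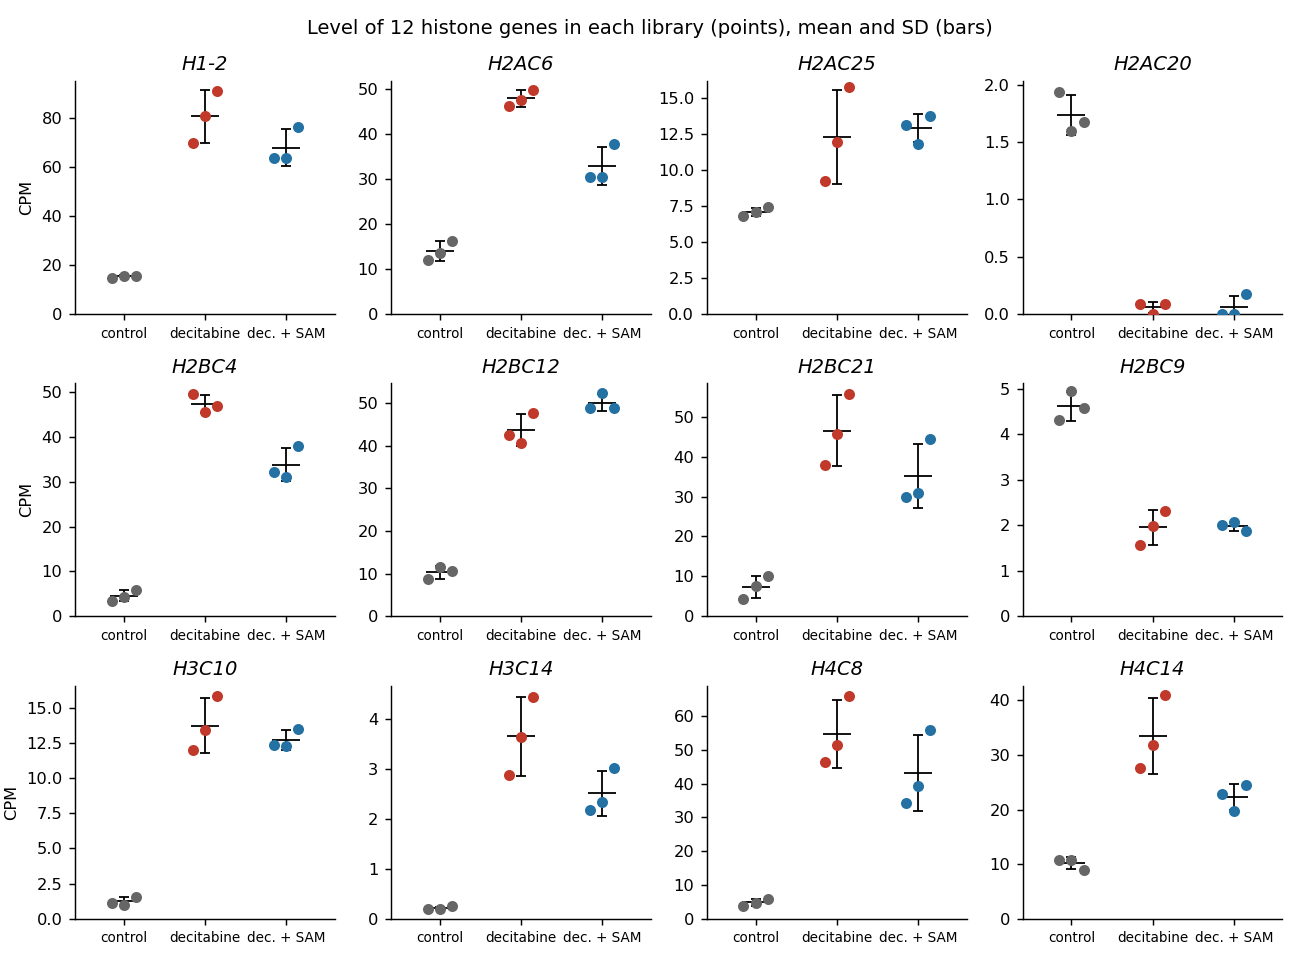
CPM (y axis of each panel, starting at 0) of 12 members in the 3 control, 3 decitabine and 3 combination libraries, with points for libraries and bars for the mean and SD. H2AC20 and H2BC9 run downwards, and the other 10 run upwards.

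H2B held the largest number of called members. H2BC4 has an annotated transcript end 37155 bases past the loop along the genome. It had 3.42, 4.35 and 5.87 CPM in control cells, 49.6, 45.5 and 47.0 after decitabine and 32.2, 31.1 and 38.0 after the combination. Every treated library lay far above the controls. The rises were 10.4-fold and 7.42-fold, with log2 fold changes of 3.38 ± 0.15 (edgeR's adjusted p = 2.92e-10) and 2.89 ± 0.15 (adjusted p = 1.35e-09). H2BC5, also of cluster 1 and extended, went from 2.13, 3.75 and 3.45 CPM to 27.7, 26.4 and 30.4 and to 25.6, 24.7 and 25.4. The decitabine libraries lay just above the combination libraries, and the folds were 9.05 and 8.1. H2BC15 of cluster 3 rose by 3.31 ± 0.22 and 3.46 ± 0.22 on the log2 scale. H2BC21 of cluster 4 had 4.47, 7.498 and 10.1 CPM in control cells, 38.0, 45.6 and 55.7 after decitabine and 29.9, 30.97 and 44.3 after the combination. Its libraries were more scattered than those of H2BC4, and its rises were 2.66 ± 0.30 (adjusted p = 0.000104) and 2.25 ± 0.30 (adjusted p = 0.000291) on the log2 scale.

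H2BC12 of cluster 2 was the H2B gene with the highest level per kilobase in control cells, 20.8 CPM per kb. It had 8.63, 11.6 and 10.7 CPM in control cells, 42.5, 40.6 and 47.7 after decitabine and 48.9, 52.4 and 48.9 after the combination. Here the combination libraries lay above the decitabine libraries, unlike H2BC4 and H2AC6. The rises were 4.23-fold and 4.85-fold, and the difference between the treatments was not called (adjusted p = 0.175). H2BC12 shared 61.9% of its 31-base words with its near copy H2BC12L, so reads of these genes are hard to divide. H2BC1, the H2B gene of the testis, had 1 count in the whole series.

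H3 genes encode identical or nearly identical proteins, and 1 pair cannot be divided even by sequence. H3C14 and H3C15 shared 99.2% of the words of H3C14 and had the same value in every library, which is what an even division of shared reads gives. Each had 4, 4 and 5 counts in control cells, 68, 86 and 105 after decitabine and 50, 53 and 71 after the combination. Summed, they rose by 4.07 ± 0.26 on the log2 scale after decitabine (edgeR's adjusted p = 9.2e-09) and by 3.53 ± 0.27 after the combination (adjusted p = 4.62e-08). H3C10, with few shared words, had 1.14, 0.9998 and 1.58 CPM in control cells, 11.99, 13.4 and 15.8 after decitabine and 12.3, 12.3 and 13.5 after the combination. It stood 11.03-fold above the controls after decitabine and 10.2-fold after the combination, and both treated groups lay far above the controls. H3C6 rose by 2.77 ± 0.20 and 2.44 ± 0.20. H3C8 had no counts in control cells, 6, 9 and 15 after decitabine and 10, 14 and 17 after the combination, at least 8.5-fold and 11.9-fold higher when the control group is set at 3 counts.

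Most H4 genes encode the same protein from differing mRNAs. H4C8, at chr6:26277609-26285638, reached the highest level per kilobase of any member after decitabine, 134 CPM per kb, beside 11.8 in control cells. The length used was that of a transcript of 409 bases, so any reads of its extended transcripts raise these values. H4C8 had 3.87, 4.75 and 5.87 CPM in control cells, 46.6, 51.5 and 65.8 after decitabine and 34.3, 39.3 and 55.8 after the combination. The treatments overlapped, and both lay above the controls, with rises of 3.50 ± 0.24 (edgeR's adjusted p = 1.52e-06) and 3.16 ± 0.24 (adjusted p = 3.21e-06) on the log2 scale. H4C14 and H4C15 shared 98.6% of the words of H4C14, and were also summed. Together they had 234, 224 and 220 counts in control cells, 880, 970 and 1174 after decitabine and 548, 536 and 774 after the combination, again in 3 ranges that did not overlap. Their sum rose by 1.92 ± 0.14 after decitabine and 1.26 ± 0.14 after the combination. H4C11 was not called in either treatment, with log2 fold changes of 0.23 ± 0.23 (adjusted p = 0.394) and 0.28 ± 0.23 (adjusted p = 0.3).

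Members with no counts in any library were H1-1, H2AC1, H3C4, H3C11, H4C7, H4C12 and H4C13. Most of the H4C12 sequence is shared with H4C11, which had counts. A count of 0 in a library allows up to 3 counts, so low levels of these genes could not be seen at 21934307 to 22489684 counts per library. Members with at least 1 count numbered 50 to 53 in control cells and 52 to 56 after decitabine.

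The extended members held the larger part of the counts in every group. They made up 57.6% ± 1.85 of the members' counts in control cells, 64.9% ± 0.35 after decitabine and 61.3% ± 1.31 after the combination (SD, n = 3). The treated ranges lay above the control range, which ended at 59.7%. Of the 17 extended genes, 16 were tested, and after decitabine all 16 were higher, with a median log2 fold change of 2.71. Of the 50 others, 22 were tested, with 18 higher and 2 lower and a median of 2.12. Members with few control counts could be tested only when high after treatment. Among those with a control mean of at least 10 counts, 14 of 14 extended genes were higher. Of the 10 tested others, 6 were higher, 2 lower and 2 not called. Extended members summed to 5.63 times their control level and the others to 4.16 times. Of the others' mean sum, 44.4 CPM in control cells and 185 after decitabine, H1-2 held 15.4 and 80.8 and H2BC12 10.3 and 43.6. Both are listed among the 6 members of the polyadenylated type, with H2AC6, H2BC4, H2BC5 and H2BC21. These 6 summed to 45.5 to 62.1 CPM in control cells and 274 to 322 after decitabine. The sum of the others therefore includes genes of the polyadenylated type. Besides these, the others held risers such as H2BC8 (7.48-fold) and H2AC11 (7.08-fold) after decitabine. They also held the 2 members that fell, H2BC9 and H2AC20. Which end these mRNAs had was not tested. No test of the difference between the classes was made. The counts are per gene, so it cannot be told apart from them whether a read came from an extended transcript or from one that ends at the stem-loop. A list of 25 short RNAs known to lack a tail holds snRNAs, U7, the signal recognition particle RNAs and others. It summed to 5.10 to 7.10 CPM in control cells, 2.36 to 3.59 after decitabine and 3.998 to 4.87 after the combination. Only 3 of the 25 passed the filter, and 5 had no counts in any library. The list is therefore a weak measure of RNA without a tail. Of the 3 tested, 2 were called lower after decitabine. These were RN7SL1 and RN7SL2, the signal recognition particle RNAs. They fell by 1.39 ± 0.31 (edgeR's adjusted p = 0.00118) and 1.56 ± 0.36 (adjusted p = 0.0014) on the log2 scale. The part of library preparation in the histone values was not tested.

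Both treatments lowered 2 members. H2BC9, at chr6:26251614-26252075, had 4.32, 4.95 and 4.59 CPM in control cells, 1.56, 1.98 and 2.33 after decitabine and 2.0, 2.07 and 1.87 after the combination. All treated libraries lay below all controls. On the log2 scale H2BC9 fell by 1.24 ± 0.19 after decitabine (edgeR's adjusted p = 3.98e-05) and by 1.22 ± 0.19 after the combination (adjusted p = 4.79e-05). H2AC20, at chr1:149886918-149887411, had too few counts for the rule on named genes and was chosen after its values were seen. It had 39, 32 and 34 counts in control cells, 2, 0 and 2 after decitabine and 0, 0 and 4 after the combination. Its fitted log2 fold changes were -4.81 ± 0.62 (adjusted p = 8.12e-06) and -4.78 ± 0.62 (adjusted p = 9.42e-06). It shared 31.03% of its words with H2AC18, which was not analysed here. H2BC13 was not called, at -0.40 ± 0.42 (adjusted p = 0.415) after decitabine.

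H2A and H2B genes often stand head to head and share the DNA between their starts as a promoter. There were 12 such divergent pairs, with 170 to 251 bases between the annotated 5′ ends. In 7 of them both genes were tested, and after decitabine both rose in 5. H2AC6 and H2BC4 are such a pair. Their shared promoter is printed from RefSeq (GRCh38.p14), 250 bases up to the start of H2AC6 on the plus strand, with matches in capitals to the TATA box (TATAAA), the CCAAT box (CCAAT) and the octamer (ATTTGCAT) on either strand.
H2AC6-H2BC4, chr6:26123922-26124171: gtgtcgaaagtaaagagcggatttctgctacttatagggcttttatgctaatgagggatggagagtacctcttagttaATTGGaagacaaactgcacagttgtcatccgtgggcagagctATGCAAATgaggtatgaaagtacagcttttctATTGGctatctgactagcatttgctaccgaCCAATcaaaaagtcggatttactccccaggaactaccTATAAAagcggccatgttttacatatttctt
In the controls H2AC6 stood above H2BC4, at 26.9 against 9.89 CPM per kb, and after decitabine they were level, at 92.2 and 103. The sharper rise was on the H2BC4 side. H2AC20 and H2BC21 are the pair that parted. Their promoter, 250 bases up to the start of H2AC20 on the plus strand, holds the same 3 kinds of match.
H2AC20-H2BC21, chr1:149886668-149886917: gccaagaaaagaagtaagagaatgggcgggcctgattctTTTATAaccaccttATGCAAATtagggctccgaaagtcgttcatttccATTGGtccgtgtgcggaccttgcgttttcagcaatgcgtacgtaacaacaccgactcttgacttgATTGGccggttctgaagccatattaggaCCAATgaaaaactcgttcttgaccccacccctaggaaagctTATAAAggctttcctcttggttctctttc
In the controls these genes were level, at 3.52 CPM per kb for H2AC20 and 3.31 for H2BC21. With decitabine they stood at 0.114 and 20.9, and after the combination at 0.115 and 15.8. The transcript used for the length of H2BC21 is its extended form of 2224 bases, so its level per kilobase is lower than a short form would give. H2AC13 and H2BC13 parted the other way. Summed with its near copy H2AC14, H2AC13 rose by 2.65 ± 0.17 on the log2 scale (edgeR's adjusted p = 1.13e-08), while H2BC13 was not called. The H2B gene had the higher level per kilobase in 6 of 12 pairs in control cells, 9 after decitabine and 7 after the combination. The 9 include H2BC4, level with H2AC6, and H2BC1, which had 1 count in the whole series. Other pairs also held genes with few counts, and the change in number was not tested.

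**Figure D4:**
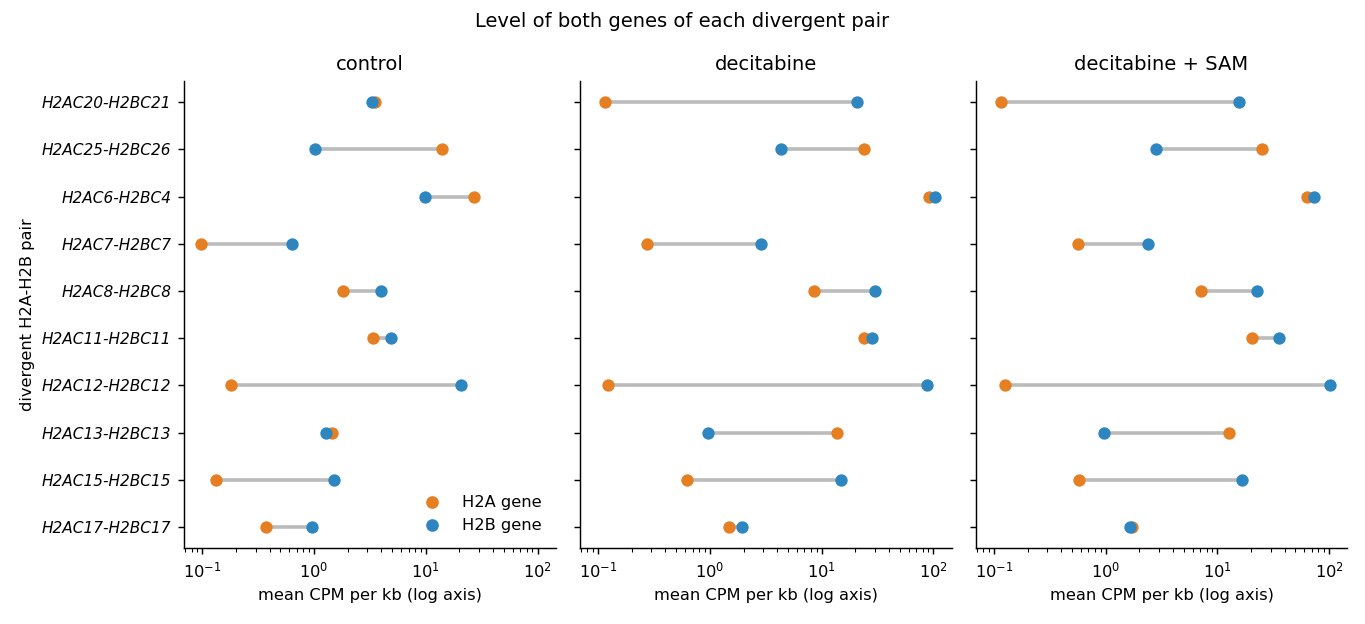
Mean CPM per kb on a log axis (x axis) of the H2A and the H2B gene of each divergent pair with at least 1 tested gene (y axis), in control cells, after decitabine and after the combination. H2AC20 and H2BC21 sit side by side in control cells and far apart in both treated groups.

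The same letters were counted in all members. RefSeq promoters of 300 bases, 250 before and 50 after the start, were used for 61 members. The entry for H3C4 was left out, since its start lay 2007 bases outside that gene and was the start of H2AC7. TATAAA was found on either strand in 65.6% of the 61 and in 11.5% of all 35116 promoters. CCAAT was found in 83.6% against 34.6%, and in every H1, H2A, H2B and H3 promoter used, but in 23.1% of those of H4. ATTTGCAT, the octamer bound by the POU2F1 protein, was found in 78.6% of H2A and 77.8% of H2B promoters, in 0 of the 10 H3 promoters and in 1.77% of all promoters. Matches of different motifs may share end letters, but none of the motifs contains another. The promoter of H2BC9, the other member that fell, is printed for comparison with the pair above. It held CCAAT and ATTTGCAT and no TATAAA.
H2BC9, chr6:26251364-26251613: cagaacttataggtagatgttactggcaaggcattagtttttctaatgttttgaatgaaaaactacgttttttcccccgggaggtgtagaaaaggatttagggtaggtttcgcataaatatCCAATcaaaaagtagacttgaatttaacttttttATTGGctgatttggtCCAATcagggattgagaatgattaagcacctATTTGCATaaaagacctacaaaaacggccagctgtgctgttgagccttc
CpG sites, the targets of DNA methylation, numbered 11 per member promoter as the median, against 14 in all promoters. The tested members had a median of 12 and the 23 others 11. Among the tested, the 34 called higher after decitabine had a median of 11.5, and the 4 called lower or not called 12.5. Methylation of these promoters was not measured in these libraries.

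SAM added to decitabine gave few called differences, and their number depended on the fit. Between the treatments, 1 member of 38 was higher and 3 lower after the combination, beside 7.67% and 8.02% of all genes. In this fit the share called lower was near that of all genes. With the replicate number as a block, 1 was higher and 10 lower. The share of all genes in that fit was not taken, so these counts cannot be set beside it. The median log2 difference over the 38 was -0.22, beside 0.0021 over all genes. H2AC6 was lower by 0.54 ± 0.11 on the log2 scale (edgeR's adjusted p = 0.00596), and it was called with each library left out, though its size stayed below a log2 fold change of 1. H4C14 was lower by 0.58 ± 0.14 (adjusted p = 0.0134), and the sum with H4C15 by 0.67 ± 0.13 (adjusted p = 0.00653). H2BC4 was lower by 0.49 ± 0.12 (adjusted p = 0.016). H2BC11 of cluster 2, the one member that was higher, had 12.9, 13.8 and 14.2 CPM after decitabine and 17.6, 17.3 and 16.5 after the combination. Its difference was 0.33 ± 0.10 (adjusted p = 0.0412). Leaving out single libraries changed the other calls. H2BC11 lost its call without control 2, decitabine 1 or 2, or combination 1 or 2. H2BC4 lost its call without decitabine 1 or 2 or combination 1 or 2, and H4C14 without combination 2. Without combination 3, 8 members were lower, and without combination 2 there was 1. The shares of all genes in those fits were not taken either. The median difference was 0.26 for the 4 tested members of cluster 2 and -0.50 for the 8 of cluster 4, and the difference between clusters was not tested.

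Genes that accompany histone synthesis moved in both directions, and the balance shifted with the scaling, as did that of all genes. SLBP, the protein that binds the stem-loop, had 103, 106 and 109 CPM in control cells, 110, 111 and 106 after decitabine and 118, 116 and 107 after the combination, and was not called (log2 0.04 ± 0.07, edgeR's adjusted p = 0.574, and 0.10, adjusted p = 0.194). NPAT had 33.1, 34.6 and 36.6 CPM in control cells and 33.0, 31.8 and 26.04 after decitabine, with no call (-0.20 ± 0.09, adjusted p = 0.0702), and was called lower without decitabine 1 (adjusted p = 0.0285). With library size alone the SLBP values became called rises of 0.29 and 0.32, and the NPAT value 0.05. CASP8AP2, a histone locus body protein, fell by 0.59 ± 0.12 after decitabine (adjusted p = 0.000515). Of the U7 particle, LSM11 fell by 0.31 ± 0.09 (adjusted p = 0.00716) and LSM10 by 0.27 ± 0.11 (adjusted p = 0.0375) after decitabine. With library size alone neither was called, at -0.069 (adjusted p = 0.516) and -0.023 (adjusted p = 0.858). LSM10 also lost its call without control 1 or 2 or decitabine 1 or 2, with DESeq2 or its size factors, and with a filter at a mean of 10 counts. ZNF473, the zinc finger protein of that complex, was at -0.03 ± 0.07. Of 10 genes of histone transcription, 1 rose and 5 fell after decitabine, and 2 rose and 2 fell after the combination. After decitabine the riser was CCNE1, cyclin E1, at 0.46 ± 0.15 (adjusted p = 0.0119), and its call was lost without control 1 (adjusted p = 0.0664). Of 19 genes of 3′ end processing and decay, 1 rose and 13 fell after decitabine (median -0.28), and 3 rose and 9 fell after the combination. The largest of these changes were in SNRPF and SNRPD3, ring proteins of spliceosomal and U7 particles, which fell by 0.998 ± 0.08 and 0.82 ± 0.09. With library size alone, 8849 of all 18532 genes rose and 3746 fell after decitabine (median 0.28). After the combination 8695 rose and 3857 fell (0.27). In that scaling 3 of the 10 genes of transcription rose and 1 fell after decitabine (median 0.063), and 6 rose and 0 fell after the combination (0.23). Of the 19 genes of processing and decay, 4 then rose and 4 fell after decitabine (median -0.030), and 8 rose and 5 fell after the combination (0.063).

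**Figure D5:**
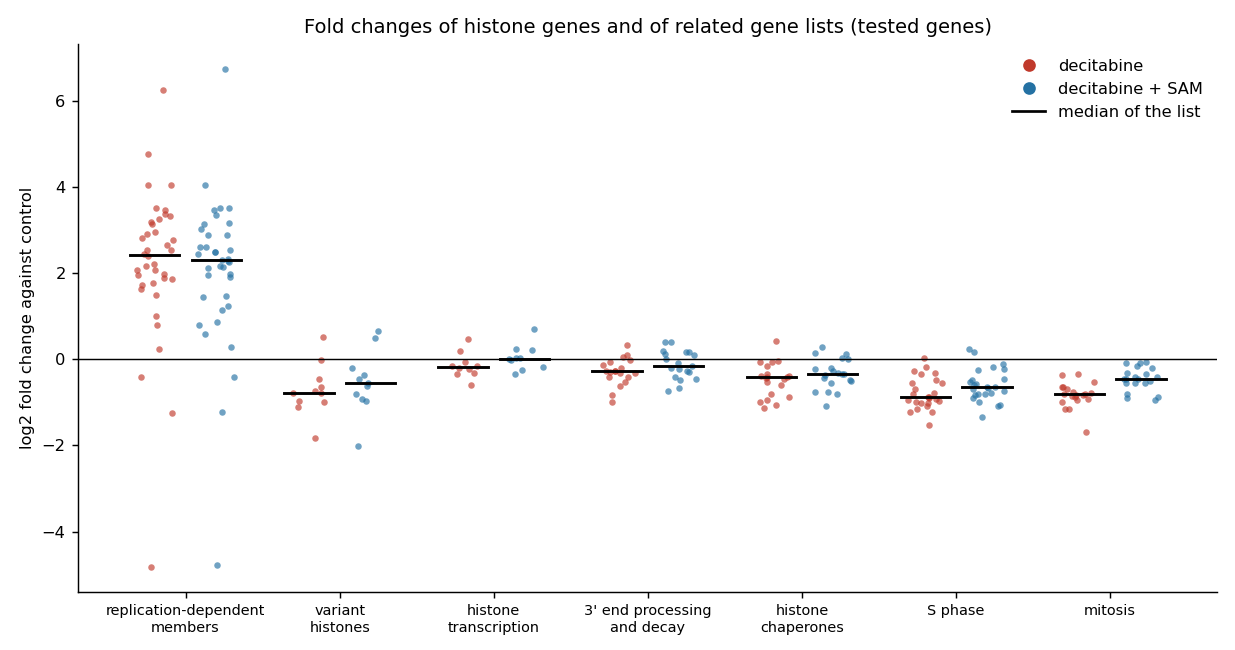
Log2 fold change against control (y axis) of each tested gene of the replication-dependent histones and of 6 related lists (x axis), after decitabine and the combination side by side and the list median as a bar. The histone medians are 2.42 and 2.29, and those of S phase are -0.89 and -0.64.

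The genes of S phase, when histone mRNAs are usually made, fell while the histone mRNAs rose. Of 25 genes of S phase, 24 fell after decitabine (median -0.89), and 1 rose and 21 fell after the combination (median -0.64). GINS2, a part of the replicative helicase, fell by 1.23 ± 0.10 on the log2 scale (edgeR's adjusted p = 6.05e-08). Of 20 genes of mitosis, 20 fell after decitabine (median -0.81) and 14 after the combination (median -0.45). PLK1, a mitotic kinase, fell by 1.69 ± 0.11 and KIF11, a spindle motor, by 1.15 ± 0.10. Library size alone left 20 genes of S phase and 18 of mitosis lower after decitabine, and 19 and 9 after the combination, where the median of mitosis became -0.23.

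Variant histones, most of them made throughout the cell cycle, mostly fell. Of the 17 variant histone genes listed, 11 were tested, of which 1 rose and 9 fell after decitabine (median -0.78), and 2 rose and 8 fell after the combination. MACROH2A2, a macroH2A variant, fell by 1.10 ± 0.09 after decitabine. Of 20 histone chaperones, 1 rose and 15 fell after decitabine (median -0.42), and 1 rose and 14 fell after the combination (median -0.34). With library size alone, 3 chaperones rose and 10 fell after decitabine (median -0.18), and 5 rose and 8 fell after the combination (median -0.12). ATRX, a chromatin remodeller that deposits histone H3.3, fell by 1.13 ± 0.11, and SSRP1, a part of the FACT complex, by 1.06 ± 0.08.

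The libraries had the marks of PC-3, with means of 120 CPM for KRT8, 426 for KRT18 and 1261 for VIM in control cells, and KLK3 at 0 in all libraries. Of the markers of other cells, CD3E of lymphocytes had no counts in control cells and at most 0.042 CPM as a group mean elsewhere. PTPRC of leukocytes had 0.083 CPM in control cells, 1.05 after decitabine and 0.734 after the combination. Of the endothelial markers, CDH5 had 0.083, 0.267 and 0.375 CPM, and PECAM1 had 10.1, 35.1 and 39.6. The part of these genes in the histone values was not tested.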

How the data were processed

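The deposited estimated counts per Ensembl gene were used. According to the methods of the study, the authors trimmed reads with Trim Galore and made these counts with kallisto on GRCh38. They are not normalized, and the annotation release and strand setting are not given in the sources used here. Deposited log2 CPM values were not used. Identifiers were matched to GENCODE release 44 (60357 of 60617).

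Counts were rounded, and 18532 genes that passed filterByExpr were tested with edgeR 4.0.16 (TMM, robust quasi-likelihood test, 1 mean per group over all 9 libraries) in R 4.3.3. Adjustment was by Benjamini and Hochberg over all genes tested, with calls at 0.05. Library totals of 21934307 to 22489684 counts limit what can be seen of rare members. A group at 0 was set at 3 counts over the group, and exact 95% intervals cover counting error only. CPM are scaled by TMM, and CPM per kb use the canonical transcript. Members sharing over 50% of 31-base words, the word length of kallisto, were also summed (10 members, 5 pairs).

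Named members were every H1 gene, the 2 highest per kb of each core type, the 5 largest called changes each way in each comparison whose groups did not overlap (with 50 counts or more as the mean of 1 group), the testis and polyadenylated types, and members at 0 throughout. SLBP, NPAT, CASP8AP2, LSM10, LSM11, ZNF473 and the 2 largest changes of each list were named as well. Members and lists were chosen with earlier results of these data known. Alternatives were DESeq2 1.42.0 and its size factors, library size alone, voom and limma 3.58.1, no filter, a filter at a mean of 10 counts, fits of only the 6 libraries compared, a replicate block, a log2 fold change over 1, summed near copies, another denominator and leaving out each library. The chi-square statistic per degree of freedom between libraries of a group was 6.40 to 26.1, so none was a copy. Tested on simulated data in 5 draws of 15830 to 15874 genes, the test recovered 99.6% of changed genes for decitabine against control, and 3.77% of its calls there were false. In that comparison 1000 genes were changed over the 5 draws, all by the same size and none with few counts. These rates do not carry over to data where most genes are called, or to members with few control counts. A few single-gene values are left out of the text.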

Additional observations from a re-analysis of the deposited data

How the results depend on the processing

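Both rises of the histone genes kept their direction in every alternative. The members called higher numbered 34 to 35 after decitabine and 30 to 33 after the combination when single libraries were left out, and those called lower 2 to 3 in both. Medians then ran from 2.10 to 2.54 and from 2.05 to 2.43, lowest without decitabine 3 and combination 3. Without the filter they were 1.83 and 1.90, and library size alone gave 2.51 for the combination. Over the members with a control mean of at least 10 counts, an alternative added after the data were seen, 20 and 19 were called higher, since fewer genes were counted. The unscaled sum of CPM, with single libraries left out, was 88.5 to 101 in the controls, 521 to 588 after decitabine and 425 to 479 after the combination.

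Between the treatments the calls were unstable, and the cause was not tested. Members called higher numbered 0 with library size alone, without the filter, with only the 6 libraries compared and at a log2 fold change over 1, and 0 to 1 with libraries left out. Members called lower numbered 5 without the filter, 10 with the replicate block, 0 at a log2 fold change over 1 and 1 to 8 with libraries left out. The shares of all genes called lower in these settings were not taken. The median ran from -0.31 to -0.031 with libraries left out. The replicate numbers did not pair the treated libraries with the controls: the same-number correlations of deviations from the group means were -0.017 to 0.069. Between the treatments they were 0.036 to 0.233, and each library correlated best with its own number. Whether those libraries share an origin is not given in the labels, and the main fit did not use the numbers.

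For single genes, 2612 of the values kept their direction and side of the threshold, 63 lost and 36 gained a call, and 15 changed sign, all of them from values that were not called. One of the 15 became a call: with library size alone, ZNF473 was higher after decitabine, at 0.22 (adjusted p = 0.015). In that setting NPAT was at 0.046 after decitabine and 0.049 after the combination, and H2BC9 at -0.0099 between the treatments. With single libraries left out, values between the treatments ran from -0.10 to 0.28 for H2AC25, -0.12 to 0.16 for H2BC9, -0.20 to 0.0017 for H3C10, -3.46 to 0.57 for H2AC20, -0.072 to 0.092 for NPAT and -0.10 to 0.16 for ATRX, and after decitabine from -0.062 to 0.0047 for ZNF473. ZNF473 was at 0.00056 with only the 6 libraries compared, and H2AC20 at -0.45 between the treatments with voom and limma.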
